A study of Mus musculus with 2 samples.

Results

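The proteasome genes were 50 genes measured on 2 mouse arrays, out of 18193 genes with a probe set of their own. They were chosen by name from the platform annotation, as genes whose symbol begins with Psm, a letter from a to g and a number, together with Pomp and Adrm1. A probe set is a group of oligonucleotides on the array that read 1 transcript, and each gene took the probe set with the highest mean signal. No probe set was named for Adrm1 alone, and Psme2 was not analysed here because its probe set was also named for its retrogene copy Psme2b. Of the 50 genes, 45 were constitutive members with their chaperones and regulators, 4 were immunoproteasome members, and Psmc3ip, a meiotic recombination factor, matched by name only and was kept out of the medians.

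The arrays held total RNA of neutrophils grown from bone marrow of mir-223 knockout mice and of wild-type mice, male and of the strain C57BL/6 in both cases. Culture from progenitors lasted 6 days in medium with G-CSF, the main cytokine of granulocyte production, and SCF, which binds the receptor Kit. Cells of both genotypes received 100 ug/ml of cycloheximide, a translation blocker, for the last 8 min before harvest. With 1 Affymetrix 3' array for each genotype, no difference has a replicate check, no test was run, and every value compares these 2 arrays rather than the genotypes. The labels do not say how many mice gave the cells or how the knockout allele was made.

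The proteasome is the protease that degrades ubiquitin-tagged proteins in the cytosol and nucleus. Its barrel-shaped 20S core has outer alpha rings, which gate the entrance, and inner beta rings, which carry the catalytic sites. A 19S regulatory particle binds the tagged protein, removes the ubiquitin, unfolds the chain with ATPases and feeds it into the core. In blood cells and after interferon exposure, the catalytic subunits Psmb5, Psmb6 and Psmb7 are replaced by Psmb8, Psmb9 and Psmb10, which gives the immunoproteasome, known for making peptides for MHC class I molecules. Leukocytes can carry both forms.

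The microRNA missing from the knockout cells and the promoters of 4 catalytic subunits are shown first. The 2 genotypes are named for that microRNA, and these subunits exchange between the constitutive and immune forms. All are RefSeq sequences of build GRCm38.p6. The strand of miR-223 that is usually loaded into silencing complexes is given 5′ to 3′ with its seed, bases 2 to 8, in capitals. Transcripts were not searched for matches to this seed.
mmu-miR-223-3p: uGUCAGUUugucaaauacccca
Each promoter window runs from 250 bases before to 50 bases after the annotated start of the gene, 300 bases in all, 5′ to 3′ on the strand of the gene. Capitals mark the letters TGACNNNGC, the core of the antioxidant response element bound by Nfe2l1 and Nfe2l2, TTCNNNGAA, the spacing of STAT sites, or CCAAT, each searched on both strands. The constitutive subunits Psmb5 (chr14:54617946-54618245, minus strand) and Psmb6 (chr11:70525107-70525406, plus strand) each held 1 match, to TGACNNNGC.
Psmb5: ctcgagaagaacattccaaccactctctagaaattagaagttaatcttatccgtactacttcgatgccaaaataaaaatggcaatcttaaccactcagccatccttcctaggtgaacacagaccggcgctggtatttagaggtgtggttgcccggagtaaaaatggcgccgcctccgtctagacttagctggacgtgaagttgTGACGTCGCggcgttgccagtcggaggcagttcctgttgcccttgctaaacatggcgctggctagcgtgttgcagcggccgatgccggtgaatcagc
Psmb6: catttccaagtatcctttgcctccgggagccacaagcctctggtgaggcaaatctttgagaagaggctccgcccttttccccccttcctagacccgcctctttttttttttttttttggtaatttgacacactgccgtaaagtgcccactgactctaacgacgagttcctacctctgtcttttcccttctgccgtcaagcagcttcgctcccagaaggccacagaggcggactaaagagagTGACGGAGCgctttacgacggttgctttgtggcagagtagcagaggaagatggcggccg
The immunoproteasome subunits Psmb8 (chr17:34197945-34198244, plus strand) and Psmb9 (chr17:34187281-34187580, minus strand) held no TGACNNNGC. Psmb8 held a TTCNNNGAA match, and Psmb9 held CCAAT on the opposite strand. The pair of Psmb7 and Psmb10 is not shown, and no TGACNNNGC match was counted for either gene.
Psmb8: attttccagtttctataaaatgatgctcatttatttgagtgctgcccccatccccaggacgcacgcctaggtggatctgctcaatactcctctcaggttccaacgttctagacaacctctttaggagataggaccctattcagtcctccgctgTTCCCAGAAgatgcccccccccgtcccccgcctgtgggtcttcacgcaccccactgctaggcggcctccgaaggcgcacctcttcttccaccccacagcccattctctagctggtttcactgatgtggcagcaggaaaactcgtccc
Psmb9: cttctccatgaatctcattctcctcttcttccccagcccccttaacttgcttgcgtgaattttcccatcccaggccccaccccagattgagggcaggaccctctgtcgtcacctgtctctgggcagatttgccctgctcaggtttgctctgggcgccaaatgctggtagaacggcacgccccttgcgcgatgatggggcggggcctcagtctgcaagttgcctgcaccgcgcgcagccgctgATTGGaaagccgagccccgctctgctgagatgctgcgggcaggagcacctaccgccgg
Promoter windows were matched for 42 of the 50 genes. TGACNNNGC stood in 4 of 27 windows of 20S and 19S subunits (14.8%), against 12.4% of all 32851 windows, and CCAAT stood in 37.0% against 37.4%. The core of the interferon-stimulated response element was in 2 of the 27 windows (7.41%), against 3.44% of all windows, and TTCNNNGAA was in 1 (3.70%), against 8.30%. That core also stood in the window of Psme1, 1 of 4 immunoproteasome windows. These are letter matches only, counted per window, and a few genes have 2 windows.

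Values below are array intensities on the linear scale, and differences are mir-223 knockout minus wild-type values of log2(intensity + 16), where 1 is a 2-fold change. The pseudocount of 16 shrinks differences of dim genes. A gene counted as expressed when its mean log2 value reached the median of all probe sets, 5.64, or an intensity of 33.9. By this rule 49 of the 50 proteasome genes were expressed, against 11006 of all 18193 genes. The exception was Psmb11, the catalytic subunit of the thymus form, at intensities of 10.4 on the knockout array and 11.9 on the wild-type array. Psma8, the alpha subunit of germ cells, was expressed by this rule but near the limit, at 50.4 and 55.9 in the same order. The remaining expressed members had intensities between 417 and 6358, apart from the name match Psmc3ip, at 352 and 379 in that order.

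The deposited intensities had medians of 33.8 on the knockout array and 34.2 on the wild-type array. All 13 measured neutrophil markers were expressed, over a wide range of intensities. S100a9 was at the top of the range, at 31305 and 29262 on the knockout and wild-type arrays. Cxcr2 was the dimmest of these markers, at 455 and 347 in the same order. The difference varied among expressed probe sets of a gene with a pooled SD of 0.144 over 5017 genes. This SD was 0.109 over the 22 proteasome genes with at least 2 such probe sets, Psmc3ip among them. This spread within arrays is the only error measure at hand and is not a replicate error. Signals of the spike-in controls differed by medians of -0.11 for 18 hybridization controls and -0.16 for 27 poly-A controls, both larger in size than most differences reported here. For beta-actin, the 3' probe set exceeded the 5' one by 0.25 (log2) on the knockout array and by 0.33 on the wild-type array. The part of these technical values in the differences below was not tested.

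Messenger RNAs of the constitutive proteasome were slightly lower on the knockout array on the scale as deposited, a direction that turns when the arrays are aligned on spike-in controls. No member differed strongly. Of 44 expressed constitutive members, 35 were lower and 9 higher, where 50.1% of all expressed genes were lower and 49.7% higher. Their median difference was -0.078, against -0.00037 over all expressed genes. No proteasome gene differed by 0.5 or more in either direction (background 1.72%), and so none by 2-fold (background 0.145%). The differences ran from -0.22 to 0.14, with an SD of 0.085 among the constitutive members, against 0.18 among all expressed genes. By at least 0.2, Psmg1 was lower (1 member, background 8.27%) and none was higher (background 12.1%). At a limit of 0.1, chosen after the values were seen, 17 constitutive members were lower (background 24%) and 1 was higher (background 26.3%). The members thus lay close together on the lower side, with most differences smaller than the spread between probe sets of a gene. In bulk RNA, fewer cells with high levels and less RNA per cell cannot be told apart.

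**Figure D1:**
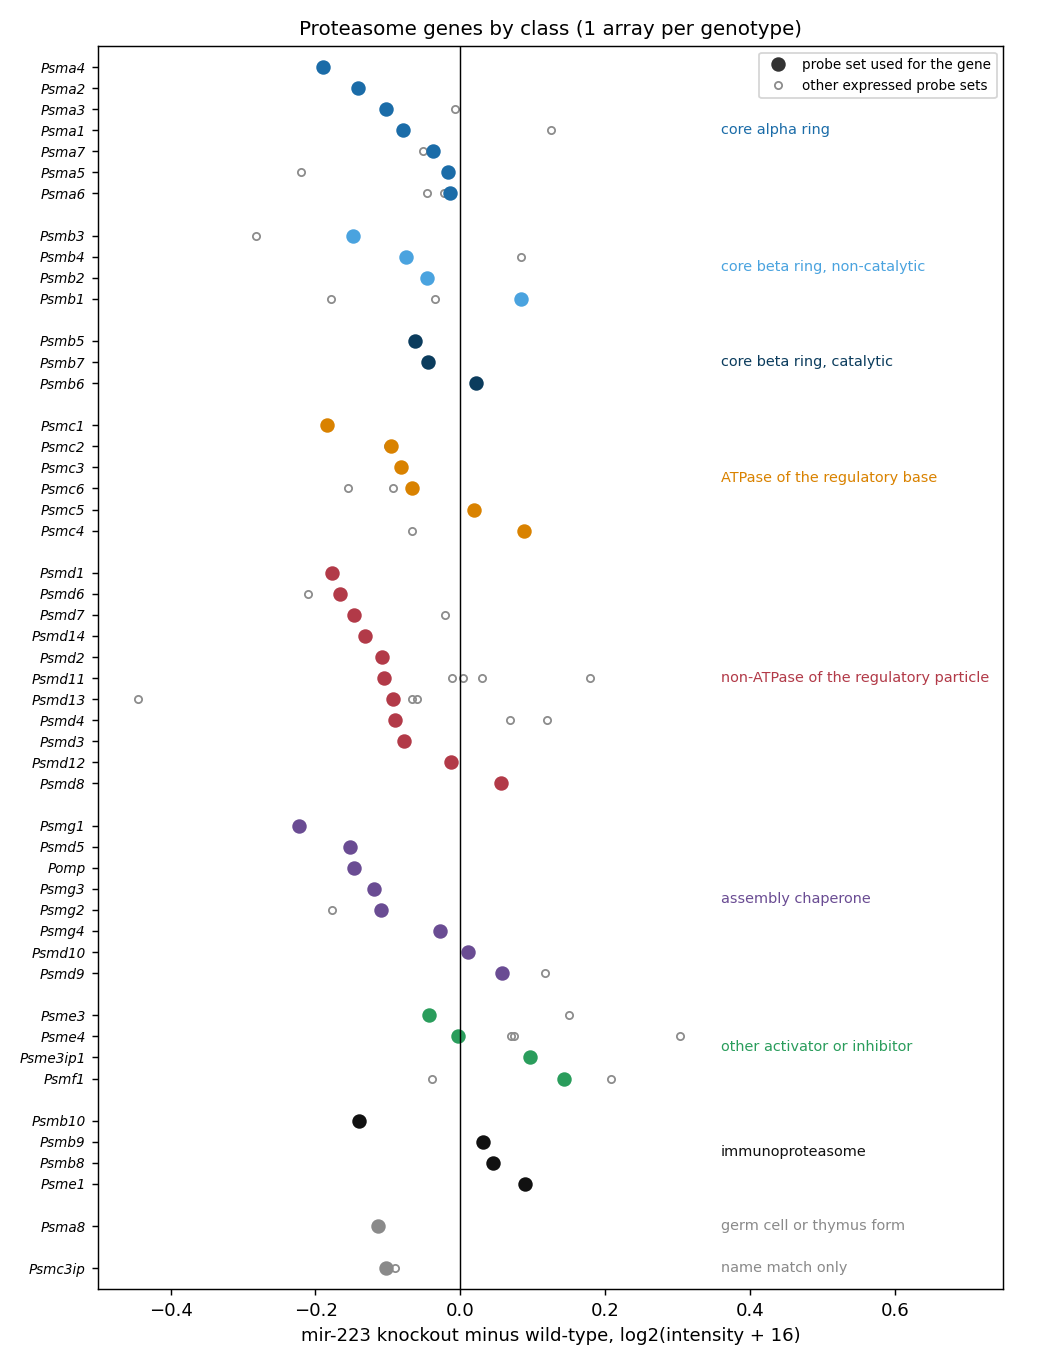
Difference of each expressed proteasome gene, mir-223 knockout minus wild-type on the log2(intensity + 16) scale (horizontal axis), by class and ordered within it, on the scale as deposited. Filled points are the probe set used for the gene and open points its other expressed probe sets; all 7 filled alpha ring points lie left of 0, while Psmf1, Psme3ip1 and 3 of 4 filled immunoproteasome points lie right of it.

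The 20S core and the 19S particle themselves held 31 expressed subunits, of which 26 were lower and 5 higher, with a median of -0.079. The core counted 12 of 14 lower (median -0.054) and the regulatory particle 14 of 17 (median -0.093). Among the 2218 other expressed genes in the same range of mean signal, 52.3% were lower and the median was -0.0076. In that range 23.2% of genes were lower by at least 0.1, against 11 of the 31 subunits. The subunits were bright, with intensities from 806 to 6358.

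**Figure D2:**
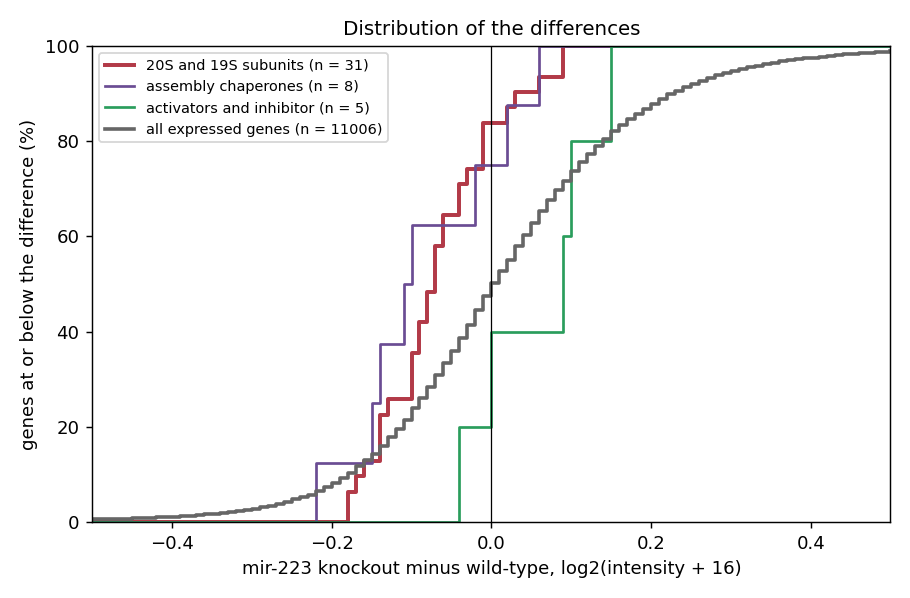
Percent of genes (vertical axis) at or below each mir-223 knockout minus wild-type difference on the log2(intensity + 16) scale (horizontal axis). The curve of the 31 subunits of the 20S core and 19S particle crosses 0 at 83.9%, against 50.3% for all 11006 expressed genes. That of the 5 activators and inhibitor (Psme1, Psme3, Psme3ip1, Psme4, Psmf1) crosses 0 at 40%. It reaches 100% at 0.15, where the curve of all expressed genes stands at 82.1%.

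By the brightest probe set, all 7 subunits of the alpha rings, which form the gated outer face of the core, had lower signals on the knockout array, with a median of -0.079. Psma4 had an intensity of 2781 on the knockout array and 3175 on the wild-type array, a difference of -0.19, the lowest in the core. Psma2 had 5765 and 6358 (-0.14) and Psma3 had 4849 and 5207 (-0.10) on the knockout and wild-type arrays. These 3 are the alpha subunits below -0.1. Psma1 stood at 2622 on the knockout array and 2770 on the wild-type array (-0.079), but a dimmer second probe set gave 0.12. The signals of Psma7 (2309 on the knockout array, 2369 on the wild-type array) and Psma6 (5389 on the knockout array, 5442 on the wild-type array) differed by -0.037 and -0.014. Psma5 had 3450 and 3489 on the knockout and wild-type arrays (-0.016), whereas its other bright probe set gave -0.22. Both expressed probe sets of Psma5 were thus lower, by different amounts.

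In the beta rings, 3 of 4 structural subunits and 2 of 3 constitutive catalytic subunits were lower. Psmb3 had 2728 on the knockout array and 3024 on the wild-type array (-0.15), and its second probe set was lower as well (-0.28). Psmb4 stood at 4714 and 4965 on the knockout and wild-type arrays (-0.075), with a second probe set at 0.083. Psmb2 stood at 1951 on the knockout array and 2014 on the wild-type array (-0.046). Psmb1 was the structural subunit on the higher side, at 2757 on the knockout array and 2600.15 on the wild-type array (0.084), and its dimmer probe sets went down to -0.18. Only Psmb3 among these 4 was past 0.1 and had both of its expressed probe sets on 1 side.

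The catalytic subunits, in which the constitutive and immune forms exchange, showed no common direction. Psmb5, which cleaves after hydrophobic residues and whose promoter is shown above, had 3359 on the knockout array and 3507 on the wild-type array (-0.062). Its immune counterpart Psmb8 had 1843.5 and 1785.5 on the knockout and wild-type arrays (0.046). The difference of Psmb8 was therefore 0.11 above that of Psmb5. Psmb6, which cleaves after acidic residues, had 2294 on the knockout array and 2259.6 on the wild-type array (0.021), and its counterpart Psmb9 had 876 and 857 in the same order (0.031). The differences of this pair lay 0.0093 apart. Psmb7, which cleaves after basic residues, had 4319.5 on the knockout array and 4456 on the wild-type array (-0.045). Its counterpart Psmb10 had 1040.05 on the knockout array and 1147 on the wild-type array (-0.14), which put it 0.095 below Psmb7. The 3 pairs thus went 3 ways, each by less than the spread between probe sets of a gene, and each of the 6 genes rests on 1 expressed probe set.

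**Figure D3:**
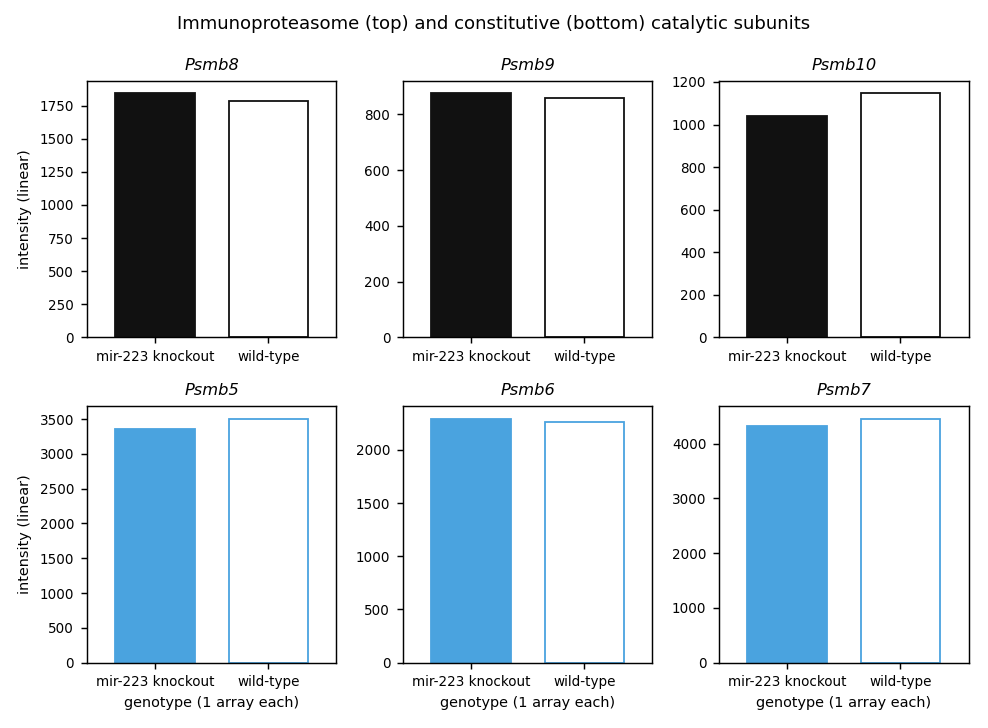
Linear array intensity (vertical axes, from 0) of the immunoproteasome subunits Psmb8, Psmb9 and Psmb10 and of the constitutive subunits they replace, on the mir-223 knockout array (filled) and the wild-type array (open). Each gene has its own axis because intensities of different probe sets are not comparable; the 2 bars of each gene are nearly equal, with the largest difference on the log2 scale in Psmb10 (1040.05 on the knockout array and 1147 on the wild-type array).

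Of the 4 immunoproteasome genes, 3 were higher and Psmb10 was lower, with a median of 0.038. Psme1, a subunit of the PA28 activator that caps the core in place of the 19S particle, had 2186 on the knockout array and 2053 on the wild-type array (0.090). With 4 genes and no difference past 0.2, a common direction cannot be read from them. Psmb8 and Psmb9 lie with Tap1 and Tap2, the peptide transporter genes, in 1 stretch of chromosome 17 in the RefSeq gene order. Tap2 stood at 631 on the knockout array and 530.2 on the wild-type array (0.24), and Tap1 at 240.01 and 257 in the same order (-0.093), with a second probe set at 0.23. The 4 neighbouring genes thus did not share a sign on the probe sets used.

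The 6 ATPases of the 19S base, which unfold substrates and open the gate of the core, were split 4 lower to 2 higher, with a median of -0.075. Psmc1 differed most, with 1444 on the knockout array and 1643 on the wild-type array (-0.18). Psmc2 had 3665 and 3917 (-0.095, and -0.0997 on a second probe set) on the knockout and wild-type arrays, and Psmc3 had 2849 and 3018 (-0.082). Psmc6 stood at 2270.1 on the knockout array and 2378 on the wild-type array (-0.067), with dimmer probe sets down to -0.16. On the other side, Psmc5 was nearly equal at 1794 and 1771 on the knockout and wild-type arrays (0.018). Psmc4 had 1864 on the knockout array and 1753 on the wild-type array (0.088), and its second probe set gave -0.067. Psmc1 is the ATPase past 0.1, and it has 1 expressed probe set.

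Of the 11 non-ATPase subunits of the 19S particle, 10 were lower, with a median of -0.10. Psmd1, a large scaffold of the base, had 1727 on the knockout array and 1954 on the wild-type array (-0.18), and Psmd2, the other scaffold, had 2654.5 and 2862 in the same order (-0.11). Of the lid, Psmd6 had 2949 on the knockout array and 3311 on the wild-type array (-0.17), with its second probe set at -0.21. Both probe sets of Psmd6 were past -0.1. Psmd14, the deubiquitinase that strips ubiquitin from the substrate, had 4701 on the knockout array and 5151 on the wild-type array (-0.13), and its lid partner Psmd7 had 1156 and 1281 in the same order (-0.15). A dimmer second probe set of Psmd7 gave -0.021.

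Other non-ATPase subunits differed less or had probe sets that disagreed. Psmd11 had 3645 on the knockout array and 3921 on the wild-type array (-0.10), while its 5 expressed probe sets ran from -0.10 to 0.18. Psmd13 had 1330.1 and 1419 on the knockout and wild-type arrays (-0.093), with all 4 expressed probe sets lower and a dim one at -0.45. Psmd3 had 806 on the knockout array and 851 on the wild-type array (-0.077). Psmd12 was almost equal at 1595 and 1609 on the knockout and wild-type arrays (-0.013). The ubiquitin receptor Psmd4 had 2128 on the knockout array and 2265 on the wild-type array (-0.090), with dimmer probe sets up to 0.12. Psmd8 was the class member on the higher side, at 2589 on the knockout array and 2489 on the wild-type array (0.056).

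Assembly chaperones, which build the rings and the base and then leave, were lower in 6 of 8 cases, with a median of -0.11. Psmg1, an alpha ring chaperone, had 1057 on the knockout array and 1237 on the wild-type array, and its -0.22 was the lowest value among all proteasome genes. Its partner Psmg2 had 829 and 895 on the knockout and wild-type arrays (-0.11), and both expressed probe sets were lower. The other alpha ring pair consisted of Psmg3, at 645 on the knockout array and 702 on the wild-type array (-0.12), and Psmg4, at 533 and 544 in the same order (-0.029). By the brightest probe set, all 4 alpha ring chaperones and all 7 alpha subunits were lower. With the mean of probe sets, which takes in those below the expression limit, Psmg4 stood at 0.086 and Psma1 at 0.046. Psmg4 has 1 expressed probe set, and its other one had intensities of 9.98 on the knockout array and 6.62 on the wild-type array. Pomp, which guides beta ring assembly and core maturation, had 2309 on the knockout array and 2559.7 on the wild-type array (-0.15). Of the base chaperones, Psmd5 had 956 and 1064 on the knockout and wild-type arrays (-0.15). Psmd10, known as gankyrin, had 485 and 482 (0.010) and Psmd9 had 435 and 417 (0.058) on the knockout and wild-type arrays.

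Regulators that act on the finished core were not lower as a class, with a median of 0.047 over 4 genes. Psmf1, an inhibitor of the core in vitro, had 508 on the knockout array and 458 on the wild-type array, and its 0.14 was the highest value among all proteasome genes. Its 3 expressed probe sets ran from -0.039 to 0.21. Psme3ip1, a partner of the nuclear activator Psme3, had 839 on the knockout array and 784 on the wild-type array (0.096), on 1 probe set. Psme3 had 552 and 569.6 on the knockout and wild-type arrays (-0.044), with a second probe set at 0.15. Psme4, the activator PA200, had 1072 on the knockout array and 1074 on the wild-type array (-0.0031), while its other probe sets reached 0.30. Apart from Psme3ip1, these regulators had probe sets on both sides of 0. Psmc3ip, which is no subunit, had 352 on the knockout array and 379 on the wild-type array (-0.10).

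Agreement between probe sets was limited, in these genes as in all expressed genes. Of the 22 members with at least 2 expressed probe sets, Psmc3ip among them, 9 had probe sets of both signs (40.9%, background 47.5%). Over all 77 expressed probe sets of constitutive members, 55 were lower, with a median of -0.052. Among all expressed probe sets named for 1 gene, 46.1% were lower and the median was 0.015. Across the 44 constitutive members, the difference was weakly related to mean signal (Pearson's r = -0.18, Spearman's rho = -0.21), as a description of genes that share both arrays.

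Other large protein complexes gave values of the same kind on the deposited scale. The 8 chaperonin Cct genes, which fold actin and tubulin, were all lower, with a median of -0.12. Of 76 mitochondrial ribosomal protein genes, 65 were lower (median -0.11), and of 43 expressed cytosolic ribosomal protein genes, 28 were lower (median -0.039). The median of the 20S and 19S subunits, -0.079, thus lay between those of the mitochondrial and the cytosolic ribosome. No difference between these sets was tested, and small lower values were not particular to the proteasome.

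Genes that deliver substrates to the proteasome were divided. Of 12 proteasome-associated deubiquitinases and shuttle factors, 8 were lower and 4 higher, with a median of -0.054. Ubqln4, a shuttle protein, had 254 on the knockout array and 306 on the wild-type array (-0.26), and its relative Ubqln2 had 1057 and 937 in the same order (0.17). The shuttle factor Rad23b stood at -0.14, with probe sets up to 0.051. Zfand5, a proteasome-binding zinc finger protein, stood at 0.15, with probe sets up to 0.39. The proteasome deubiquitinases Usp14 (-0.072, with probe sets up to 0.037) and Uchl5 (-0.095) were close to the subunits' median. Of 10 genes of the p97 segregase, which pulls tagged proteins out of membranes and complexes, 6 were higher and 4 lower (median 0.026, or -0.0045 under quantile normalization). They ran from Faf1 (-0.31, with a second probe set at 0.076) to Derl2 (0.36, with a second probe set at -0.13). Ubxn1 stood at 0.21, and Vcp, the ATPase itself, had 5398 on the knockout array and 5880.45 on the wild-type array (-0.12), with a second probe set at 0.039. Uba6, a ubiquitin-activating enzyme, stood at -0.23, with probe sets up to 0.10.

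The median of 11 genes that control proteasome transcription was 0.038, with 6 higher and 5 lower. Nfe2l1, which induces proteasome genes when proteasome activity falls short, had 295 on the knockout array and 381 on the wild-type array (-0.36, 1 expressed probe set). Its difference was larger in size than that of any subunit. Nfe2l2, the other factor named above for the antioxidant response element, had 2093 on the knockout array and 1996 on the wild-type array (0.068). A second probe set of Nfe2l2 gave -0.26. Stat3 had 2797 and 1985 on the knockout and wild-type arrays (0.49), with probe sets down to -0.12. Nfyc, a subunit of the factor that binds CCAAT, stood at -0.20, but the other Nfy genes, Nfya and Nfyb, stood at 0.15 and -0.0059. Maff, a small partner of Nfe2l1, was dim at 42.5 on the knockout array and 49.3 on the wild-type array (-0.16). The brighter Maf genes of the list were higher, Mafg at 0.12 (with a second probe set at -0.081) and Mafk at 0.073. Neither these regulators nor the delivery factors shared 1 direction.

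Genes that use or induce the immunoproteasome did not follow 1 direction. The median of 12 class I antigen processing genes was 0.037 (0.014 under quantile normalization), with 8 higher and 4 lower. Beside Tap2, the largest were Erap1, a peptide-trimming protease (-0.20, with a second probe set at 0.042), Tapbp, the bridge between transporter and class I molecule (0.19), and Tapbpl (0.13). The class I genes H2-K1 (0.015) and H2-D1 (0.038) and the light chain B2m (-0.047) were close to equal. Of 6 expressed genes of interferon gamma signalling, 3 were higher and 3 lower, led by the receptor Ifngr1 at 1633 on the knockout array and 1307 on the wild-type array (0.32). Irf8 stood at 0.17, Jak1 at 0.084 (with probe sets up to 0.55) and Irf1, an inducer of Psmb9, at -0.030. Interferon gamma itself was not expressed, at 7.15 and 6.70 on the knockout and wild-type arrays. Of 6 expressed interferon stimulated genes, 4 were lower (median -0.20, or -0.12 with a pseudocount of 64). The lower ones were Rsad2 (-0.44), Oas1a (-0.32), Irf7 (-0.26) and Mx2 (-0.15), whereas Gbp2 (0.13) and Ifit2 (0.050) were higher. Rsad2 (63.1 and 91.3), Irf7 (54.8 and 68.7) and Mx2 (32.6 and 37.9) were dim on the knockout and wild-type arrays. Of the brighter immunoproteasome genes, Psmb8, Psmb9 and Psme1 stood at 0.046, 0.031 and 0.090, and Psmb10 at -0.14.

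**Figure D4:**
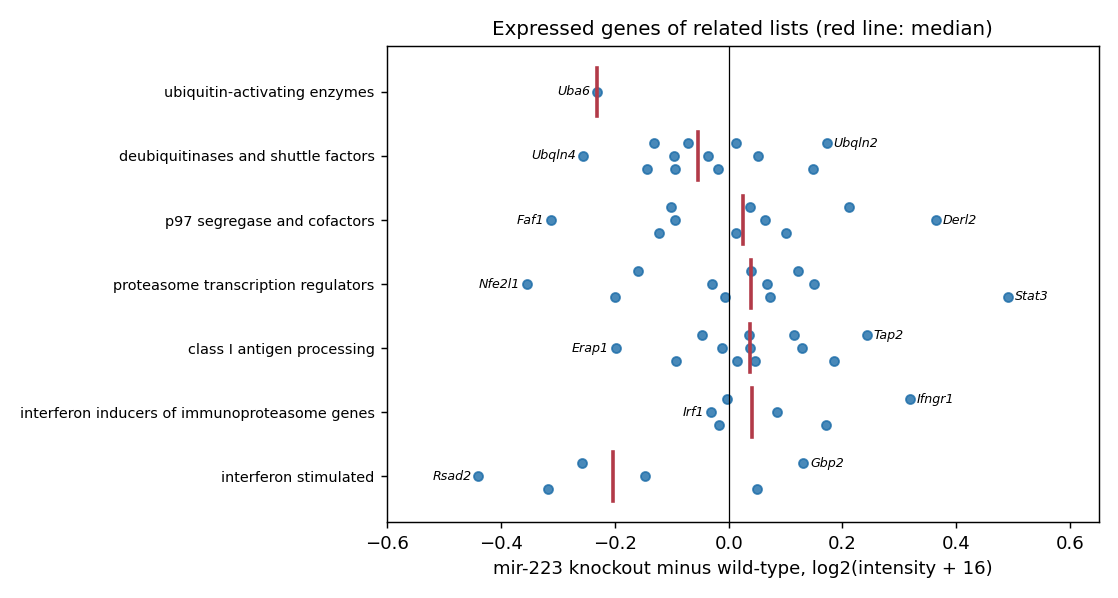
Difference of the expressed genes of 7 related lists, mir-223 knockout minus wild-type on the log2(intensity + 16) scale (horizontal axis). Each point is a gene, the red line is the median of the list, and the outermost genes are named; points lie on both sides of 0 in every list with over 1 gene, from Rsad2 at -0.44 to Stat3 at 0.49.

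Several marker lists of other blood cells had medians larger in size than the difference of any proteasome gene. Of 8 expressed mast cell and basophil markers, all were lower (median -0.54), with a summed intensity over 9 measured markers of 4506 on the knockout array and 6454 on the wild-type array. Of 7 megakaryocyte and platelet markers 6 were lower (median -0.46, sums of 1299 on the knockout array and 2020.2 on the wild-type array). The largest difference of this list went the other way, in Itgb3, at 205 on the knockout array and 71.1 on the wild-type array (1.34). Of 4 expressed eosinophil markers 3 were lower (median -0.53, sums of 1006 on the knockout array and 1233 on the wild-type array). Siglecf was higher, at 370 on the knockout array and 187 on the wild-type array (0.92), again the largest difference of its list. Of 6 expressed dendritic cell and MHC class II markers 5 were lower (median -0.18), with Itgax and Xcr1 not expressed. Of 13 neutrophil markers 12 were higher (median 0.15, sums of 187094 on the knockout array and 177132 on the wild-type array), as were 6 of 9 expressed monocyte and macrophage markers (median 0.12). The monocyte and macrophage markers were widely spread. Apoe had 473 on the knockout array and 156 on the wild-type array (1.51), and Ly86 stood at 0.71. On the lower side were Cx3cr1 (-0.60) and Cd14 (-0.32). The 3 expressed T and NK cell markers had a median of -0.072, from Cd3d (-0.81) to Nkg7 (0.47), with Cd3e and Cd3g not expressed. For the 3 expressed B cell markers the median was 0.43, from Pax5 (-0.14) to Ighm (0.64), with Cd79a and Ms4a1 not expressed. Probe sets of Ighm ran from -0.14 to 0.94. The part of these cells in the small proteasome differences was not tested.

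The small size of these differences made their sign depend on how the arrays were put on a common level. Aligning them on the hybridization controls, a choice made after the values were seen, moved the median of all expressed genes to 0.11 and that of constitutive members to 0.030. Aligning them on the poly-A controls moved these medians to 0.16 and 0.085. Both alignments take the same constant from every gene. The distance of constitutive members from the median of all expressed genes, -0.078, therefore could not change and is no check on the result.

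**Figure D5:**
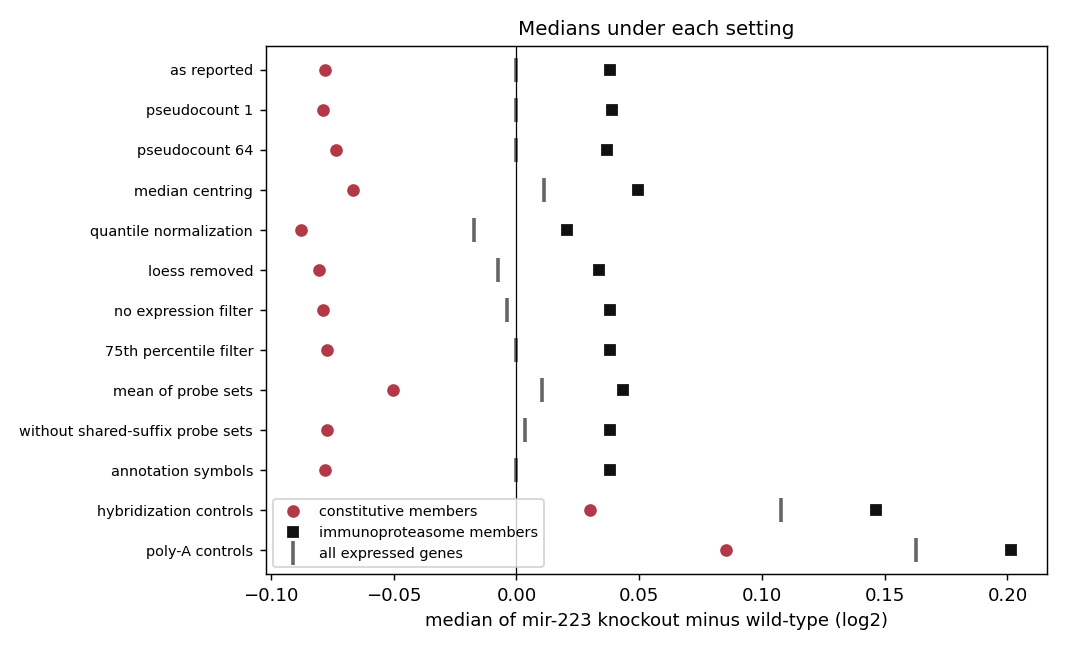
Median difference of constitutive members (circles), immunoproteasome members (squares) and all expressed genes (bars), mir-223 knockout minus wild-type in log2 units (horizontal axis), under each processing setting. Relative to all expressed genes, constitutive members lie between -0.081 and -0.061. Median centring and both alignments on controls shift every gene alike, so this distance cannot change under them. The sign of the constitutive median itself turns where arrays are aligned on spike-in controls.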

How the data were processed

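Total RNA of 1 mir-223 knockout and 1 wild-type neutrophil culture was measured, with groups taken from the labelled genotype. Per the labels' protocols, Trizol RNA was turned into biotinylated cRNA by the Affymetrix 3' IVT Express kit, which reads mainly 3' ends. Intensities deposited by the authors are linear, with 45101 probe sets on each array. The sources used here do not give their background correction, summarization or normalization. Precision is limited by the number of arrays.

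From these, 64 control probe sets were set aside, and the platform annotation gave 34945 probe sets a single gene, 932 several genes and 9160 no gene. Symbols of 34741 were updated by Entrez identifier with RefSeq genes (GRCm38.p6). Values were log2(intensity + 16), with 1 probe set per gene, in Python 3.11.15 with pandas 2.3.3, and the code was tested on simulated data. No test was run, with 1 array per genotype. The members and lists were chosen with earlier results of these data known. All members could be named, and of each other list up to 4 expressed genes with the largest differences. Usp14, Uchl5, H2-K1, H2-D1, B2m, Ifng, Tap1, S100a9 and unexpressed markers were named after their values were seen. The same holds for Nfe2l2, Nfya, Nfyb, Mafg, Mafk, Gbp2 and Ifit2. Alternatives were other pseudocounts, scalings, filters and probe set rules. Protein sequences were not used here, and ubiquitin genes were not analysed here.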

Additional observations from a re-analysis of the deposited data

How the results depend on the processing

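Under 10 other settings (pseudocounts of 1 and 64, median centring, quantile normalization, loess with a span of 0.3, no filter, a filter at the 75th percentile, the mean of probe sets, no shared-suffix probe sets, and symbols as annotated), the median of constitutive members stayed between -0.088 and -0.050, and that of immunoproteasome members between 0.021 and 0.050. The mean of probe sets takes in those below the expression limit. With it, constitutive members higher on the knockout array numbered 15 in place of 9, and members lower by at least 0.2 numbered 2 in place of 1. Aligned on the hybridization controls, the median was 0.030 for constitutive members (14 lower, 30 higher) and 0.029 for 20S and 19S subunits (8 lower), with 0 members lower and 2 higher by at least 0.2, and 0.15 for immunoproteasome members. Aligned on the poly-A controls, it was 0.085 (5 lower, 39 higher) and 0.084 (4 lower), with 0 lower and 8 higher by at least 0.2, and 0.20 for immunoproteasome members, of which all 4 were higher. The median of the p97 list turned to -0.0045 under quantile normalization, and that of the megakaryocyte and platelet list was -0.28 with a pseudocount of 64, which put the interferon stimulated list at -0.12. With the mean of probe sets, Psma1 (0.046), Psmb1 (-0.043), Psmb4 (0.0043), Psmd11 (0.012), Psmd4 (0.033), Psmg4 (0.086), Psme3 (0.038) and Psme4 (0.045) changed sign, as did Psmb1 (-0.18), Psmc4 (-0.067), Psmd11 (0.0043) and Psme4 (0.070) without shared-suffix probe sets. Psmd10 turned to -0.017 under quantile normalization and -0.0054 with loess, and Psme4 to 0.0083 with median centring. Of the 31 subunits of the core and the 19S particle, 22 were lower as reported and under each of these settings that gave them a value (Psma5 had none without shared-suffix probe sets), 3 were higher and 6 changed sign; over all 49 expressed members, 10 changed sign. A change smaller than the spread between probe sets, an SD of 0.144, was counted as no move. The cause of these changes was not tested. No paired analysis was possible because each genotype has 1 array, and no array could be left out.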
